A study of Mus musculus with 6 samples.

Results

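*Cdc42*, which encodes a small GTPase, and 9 genes for proteins that act with or after it were examined in RNA-seq libraries of mouse molar dental pulp. These were the kinase genes *Pak1*, *Pak2*, *Pak3* and *Pak4*, and *Wasl*, *Baiap2*, *Cdc42ep1*, *Cdc42ep3* and *Cdc42bpa*. The 10 genes were taken by symbol from the 27506 genes of the count table. Pulp had been dissected from the mandibular first molars of C57BL/6 mice at P3.5, and 3 control (*Ror2 fl/fl*) libraries were compared with 3 *Osr2-Cre;Ror2 fl/fl* libraries, also called *Ror2* mutant. By their genotype labels, both groups carried the floxed *Ror2* alleles and differed in the *Osr2-Cre* transgene, which came from the sires of the crosses. *Osr2-Cre* acts in mesenchyme of the tooth and in alveolar bone and spares dental epithelium, so epithelial cells of the mutants kept *Ror2*. The sources used here do not say how many animals went into a library, and p-values therefore measure only the spread between these libraries. The paper proposes Cdc42 as a possible mediator of non-canonical Wnt signaling downstream of Ror2. The comparison addresses whether *Cdc42* and its partners differ at the transcript level after loss of *Ror2* in the mesenchyme.

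Cdc42 is a molecular switch that is active when bound to GTP. Exchange factors load it with GTP, GTPase-activating proteins (GAPs) return it to the GDP-bound form, and GDP-dissociation inhibitors (GDIs) hold it in the cytosol. Active Cdc42 binds effectors that build actin filaments, polarise cells and feed into cell cycle entry, and among these are the Pak kinases, N-WASP, IRSp53, the Borg proteins and the MRCK kinases. The libraries count transcripts and do not show how much of the protein is bound to GTP.

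The libraries held 56134770 to 62628940 estimated counts. At an adjusted p-value under 0.05, 3906 of 19330 genes tested, or 20.2%, differed between mutant and control libraries (quasi-likelihood test of edgeR, Benjamini-Hochberg correction). The targeted gene *Ror2* measured 38.2, 36.2 and 36.7 CPM in controls against 27.9, 28.1 and 26.3 CPM in mutants, all below the controls although the epithelium keeps the gene. CPM (counts scaled to a common library size with the TMM method) are listed here and below in the order of libraries 1, 2 and 3 of each group. The dissected tissue held epithelial RNA, since the sum of 10 dental epithelium markers was 171870 to 192136 CPM in control and 185325 to 255690 CPM in mutant libraries, of which *Amelx*, an enamel matrix gene, made up most in every library. None of these 10 markers differed at the adjusted threshold. The mesenchyme markers *Msx1*, *Barx1* and *Dlx2* were at 42.3 CPM or more in every library, and 2 of 9 tested mesenchyme markers, *Msx2* and *Dlx2*, were higher in mutants, but with an offset for GC content none was higher and 1 was lower. The odontoblast gene *Dspp* ranged from 2515 to 7979 CPM. Skeletal muscle markers summed to 13.7 to 43.7 CPM in control and 4.31 to 5.04 CPM in mutant libraries, and 8 of the 9 that were tested were lower. Erythroid markers summed to 784 to 1331 CPM in control and 245 to 942 CPM in mutant libraries, with 2 of 7 lower. The part of these markers in the results given here was not tested. The label identifiers also differ between the groups, so a batch that coincided with genotype cannot be told apart from it. Sample titles hold letter codes that the sources used here do not explain. These are WW for control library 1, OW for control libraries 2 and 3, and OR for every mutant library. In whole tissue, a lower value from fewer cells of a type cannot be told apart from one due to less RNA per cell.

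*Cdc42*, *Pak1*, *Pak3* and *Cdc42ep3* were lower in *Ror2* mutant pulp and *Baiap2* was higher. Thus 5 of the 10 genes passed the adjusted threshold, against 20.2% of all genes tested. In the lower direction 4 of 10 passed, against 9.84% of all genes, and in the higher direction 1 of 10 passed, against 10.4%. *Pak2*, *Pak4*, *Wasl*, *Cdc42ep1* and *Cdc42bpa* did not pass. All 10 genes were measured and passed the filter on low counts, with 146 counts or more in every library. The control and mutant libraries did not overlap for 6 of the 10 genes, against 44.7% of all genes, with the mutants below for 5 (22.1% of all genes) and above for 1 (22.6%). With an offset for GC content, 4 of the 10 passed, against 13.2% of all genes, and over 19 alternative settings between 4.39% and 32.8% of all genes did. The median log2 fold change was -0.32 over the 10 genes and 0.01 over all genes tested.

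**Figure D1:**
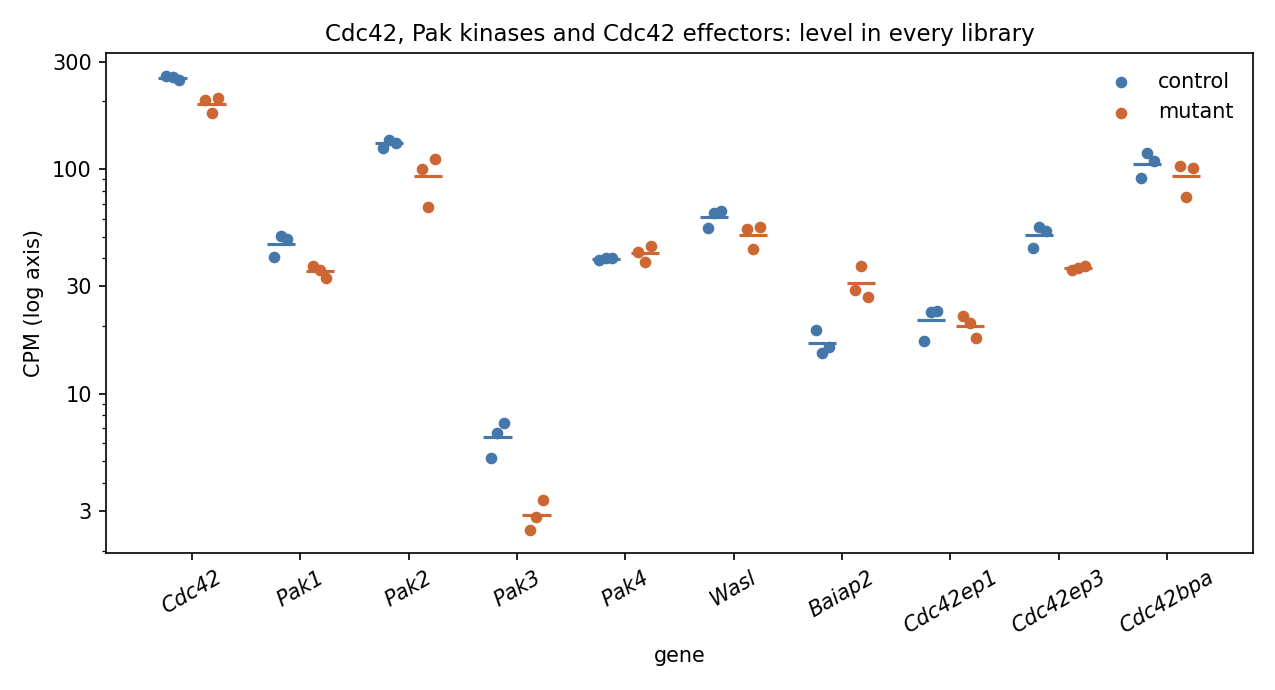
Level of each of the 10 genes in every library (CPM on a log axis), with control libraries in blue, *Ror2* mutant libraries in orange and a line at each group's mean (n = 3). The groups are fully separated for *Cdc42*, *Pak1*, *Pak2*, *Pak3* and *Cdc42ep3*, with the mutants below, and for *Baiap2*, with the mutants above.

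The 5 genes that passed lie on different chromosomes, and their upstream sequences are shown because these are the genes whose transcript levels differed. RefSeq gave a promoter for 9 of the 10 genes on GRCm38.p6 (mm10), and *Pak2* had no entry. The 250 bases before the annotated start nearest to the gene model's 5′ end are printed in the direction of transcription, 5′ to 3′. For *Baiap2* this start lies 329 bases inside the gene model, so its printed bases fall within the model. For *Cdc42bpa* the start lies 288 bases inside the model, and for the others it is 39 bases or less from the model's 5′ end. Capitals mark every match, on either strand, to the 7 motifs spelled out after the sequences, and matches may abut one another.
*Cdc42*, chr4:137357760-137358009, minus strand: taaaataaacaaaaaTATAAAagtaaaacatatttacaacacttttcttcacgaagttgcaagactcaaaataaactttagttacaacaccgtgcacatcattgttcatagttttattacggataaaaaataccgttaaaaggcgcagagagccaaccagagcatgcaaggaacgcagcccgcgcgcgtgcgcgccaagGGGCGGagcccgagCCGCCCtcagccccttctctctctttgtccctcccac
*Pak1*, chr7:97788291-97788540, plus strand: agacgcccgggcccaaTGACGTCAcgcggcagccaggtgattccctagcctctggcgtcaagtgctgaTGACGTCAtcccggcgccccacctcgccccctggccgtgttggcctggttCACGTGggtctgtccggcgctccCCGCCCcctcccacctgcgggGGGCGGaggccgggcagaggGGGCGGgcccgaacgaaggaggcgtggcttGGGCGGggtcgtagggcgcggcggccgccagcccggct
*Pak3*, chrX:143518341-143518590, plus strand: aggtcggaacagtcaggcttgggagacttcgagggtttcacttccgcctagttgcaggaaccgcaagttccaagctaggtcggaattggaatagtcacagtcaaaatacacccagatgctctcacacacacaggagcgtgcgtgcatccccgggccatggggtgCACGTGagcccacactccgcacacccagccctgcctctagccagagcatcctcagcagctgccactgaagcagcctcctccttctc
*Cdc42ep3*, chr17:79355092-79355341, minus strand: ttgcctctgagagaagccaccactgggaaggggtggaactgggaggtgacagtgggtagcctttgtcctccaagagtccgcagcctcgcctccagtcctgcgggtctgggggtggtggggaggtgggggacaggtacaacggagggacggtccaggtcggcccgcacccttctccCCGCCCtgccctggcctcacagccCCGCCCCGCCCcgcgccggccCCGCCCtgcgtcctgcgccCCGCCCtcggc
*Baiap2*, chr11:119942842-119943091, plus strand: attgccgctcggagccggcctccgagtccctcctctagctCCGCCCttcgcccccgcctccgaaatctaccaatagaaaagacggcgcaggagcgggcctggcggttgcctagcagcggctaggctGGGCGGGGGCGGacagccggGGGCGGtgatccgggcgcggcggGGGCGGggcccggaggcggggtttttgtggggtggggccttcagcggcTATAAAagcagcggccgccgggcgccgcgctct

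No motif among those searched was present in the printed upstream sequences of all 4 lower genes. RefSeq gave 3 promoters for *Pak3* and 2 each for *Pak1* and *Cdc42bpa*. Only the one nearest to the gene model's 5′ end was searched. The GC box bound by Sp1 (GGGCGG) occurred 2 times in *Cdc42*, 4 times in *Pak1* and 5 times each in *Cdc42ep3* and *Baiap2*, and not in *Pak3*. It was found in 7 of the 9 promoters with an entry, against 32.7% of 32817 RefSeq mouse promoters of the same length. That share was not matched for GC content, and 7 of the 9 were above the median of 52.4% GC of all promoters. *Pak1* held 2 matches to the CRE (TGACGTCA), the site bound by CREB and ATF factors, beginning 234 and 182 bases before its start. The CRE occurs in 1.55% of all promoters and in no other of the 9. A TATA box (TATAAA), present in 12.4% of all promoters, began 33 bases before the RefSeq start in *Baiap2* and 235 bases before it in *Cdc42*. *Pak1* and *Pak3* each held an E-box (CACGTG), present in 6.02%. The AP-1 site (TGANTCA, in 6.75% of all promoters) was found in none of the 9. The TEAD motif (GGAATG, in 12.6%) was found only in *Cdc42ep1* and the ETS motif (CCGGAAG, in 6.90%) only in *Wasl* among the 9. All 9 held more CpG dinucleotides than the median of 6, from 10 in *Pak3* and *Cdc42bpa* to 31 in *Baiap2*. These are letter matches only, and binding was not measured.

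*Cdc42* (ENSMUSG00000006699.17) lies on the minus strand of chromosome 4, from 137319696 to 137357720. Its level was 260.3, 256 and 249 CPM in controls against 203, 177 and 207 CPM in mutants. All mutant libraries were below all control libraries, and mutant library 2 was the lowest. The mean was 255 ± 5.69 CPM in controls and 196 ± 16.4 CPM in mutants (SD, n = 3), with a log2 fold change of -0.38 (95% interval -0.63 to -0.14, edgeR quasi-likelihood adjusted p = 0.0389 after Benjamini-Hochberg correction), so *Cdc42* transcripts fell by 23.4%. The exact permutation test gave a two-sided p of 0.1, the smallest that 3 libraries against 3 allow. Per kilobase of exon, *Cdc42* was the most abundant of the 10 transcripts, at 86.1 ± 1.92 CPM per kb in controls, 3.90 times the next gene.

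The call for *Cdc42* lies near the threshold. It held in 10 of 19 alternative settings, over which edgeR's, DESeq2's and limma's adjusted p ran from 0.0029 to 0.562. It was lost without control library 1 (adjusted p = 0.0813), control library 2 (0.140), control library 3 (0.137) or mutant library 1 (0.0722) in edgeR, while the log2 fold change stayed between -0.43 and -0.31. With an offset for the GC content of exons, the log2 fold change became -0.14 ± 0.12 (standard error, edgeR adjusted p = 0.451). *Cdc42* exons have a GC content of 41.8%, at the upper end of the range under 42%. The median log2 fold change of all 1918 tested genes under 42% GC was -0.36, and 25.2% of them were called lower in mutants. For genes of 42 to 46% GC the median was -0.19. Without the offset, *Cdc42* was close to the first median and below the second.

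The balance among *Cdc42*, *Rac1* and *Rhoa*, the genes of 3 small GTPases that steer the actin cytoskeleton, differed between groups without a GC correction. *Cdc42* made up 52.4, 51.3 and 50.6% of the summed CPM per kb of *Cdc42*, *Rac1* and *Rhoa* in the control libraries and 47.7, 48.2 and 48.5% in the mutant libraries. All mutant libraries were below all control libraries. The share of *Rhoa* was higher instead, 17.2 ± 0.224% in controls and 19.7 ± 0.711% in mutants, and the share of *Rac1* overlapped. Neither *Rac1* (log2 fold change -0.25, adjusted p = 0.115) nor *Rhoa* (-0.09, adjusted p = 0.586) passed edgeR's test. With a GC offset the log2 fold changes were -0.14 for *Cdc42*, -0.23 for *Rac1* and 0.03 for *Rhoa*, so *Cdc42* was then no lower against *Rac1*. *Rac1* shares 49.7% of its 75-base stretches with another gene, so its level is uncertain.

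The group I kinases Pak1, Pak2 and Pak3 are held inactive by their own regulatory domain until active Cdc42 or Rac binds. *Pak1* (ENSMUSG00000030774.13, chromosome 7, plus strand, 97788541 to 97912381) had 40.5, 50.2 and 48.9 CPM in controls against 36.9, 35.6 and 32.7 CPM in mutants. The groups did not overlap, although control library 1 was close to mutant library 1. The log2 fold change was -0.41 (95% interval -0.66 to -0.16, edgeR adjusted p = 0.0362, Benjamini-Hochberg). A GC offset left it at -0.40 (adjusted p = 0.0455), and over 19 alternatives the adjusted p ran from 0.0093 to 0.150, with 13 calls. The call was lost in edgeR without control library 2 (adjusted p = 0.150), control library 3 (0.147), mutant library 1 (0.0602) or mutant library 3 (0.0647).

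*Pak2*, the ubiquitous group I member, was the most abundant transcript of *Pak1* to *Pak4* per kb in every library except mutant library 2, where *Pak4* was above it, at 19.1 ± 0.764 CPM per kb in controls. *Pak2* (ENSMUSG00000022781.8, chromosome 16, minus strand, 32016290 to 32079342) had 124, 135 and 131 CPM in controls against 100.02, 67.9 and 111 CPM in mutants. The mutant libraries were all lower but spread widely, with mutant library 2 far below the other two. The log2 fold change of -0.48 (95% interval -0.88 to -0.09) had an adjusted p of 0.0779 in edgeR, over the threshold, and 0.0190 to 0.327 over 19 alternatives. It passed in 3 of them, DESeq2 (0.0356), limma voom (0.0190) and edgeR without mutant library 3 (0.0378), and without mutant library 2 the log2 fold change was -0.29. *Pak2* shares 2.10% of its stretches with other genes, and summing it with the 6 of them in the count table gave -0.36. Those 6 genes supplied up to 33.5% of the summed counts in a library, so this value is not one of *Pak2* alone.

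*Pak3*, which is best known in neurons, had the largest difference of the 10 genes, in either direction, with TMM scaling alone. *Pak3* (ENSMUSG00000031284.16, chromosome X, plus strand, 143518591 to 143797796) had 5.14, 6.66 and 7.38 CPM in controls against 2.47, 2.81 and 3.37 CPM in mutants. Every mutant library was well below every control library. The mean was 6.39 ± 1.15 CPM in controls and 2.88 ± 0.456 CPM in mutants, and the log2 fold change -1.15 (95% interval -1.59 to -0.70, edgeR adjusted p = 0.0081, Benjamini-Hochberg), so the level fell by 54.9%. The call held in all 19 alternatives, with adjusted p from 2.6e-06 to 0.0469. A GC offset gave -0.79 and an offset for GC and length -0.64, where the 0.74 of *Baiap2* was larger. *Pak3* was the least abundant of the 10 transcripts, at 0.669 ± 0.120 CPM per kb in controls and 0.302 ± 0.0478 in mutants. Of 8 tested Schwann cell and neuron markers, 3 were higher in mutants and none lower, and their sum was 104 to 148 CPM in control and 115 to 160.1 CPM in mutant libraries. Their part in the *Pak3* difference was not tested.

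Pak4 belongs to group II, which acts in cell adhesion and polarity. *Pak4* (ENSMUSG00000030602.13, chromosome 7, minus strand, 28558819 to 28598185) had 39.5, 40.1 and 40.2 CPM in controls against 42.8, 38.6 and 45.6 CPM in mutants. The groups overlapped, since mutant library 2 was the lowest of the 6. The log2 fold change was 0.08 (95% interval -0.13 to 0.30, adjusted p = 0.536 in edgeR). With a GC offset the sign turned, to -0.15 (adjusted p = 0.427, against 0.175 to 0.876 over all alternatives).

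As *Pak1*, *Pak2* and *Pak3* were lower or at lower values in the mutants and *Pak4* was not, the composition of the 4 kinase transcripts differed. *Pak4* made up 27.7, 25.4 and 26.0% of their summed CPM per kb in the control libraries and 33.2, 36.1 and 34.0% in the mutant libraries. These values do not overlap, and both groups are tight compared with the gap between them. The share of *Pak3* was 1.33 to 1.77% in controls and 0.709 to 0.972% in mutants. The share of *Pak2* was 44.6 ± 0.766% in controls and 38.9 ± 5.25% in mutants, without overlap, and that of *Pak1* overlapped. *Pak4* exons have 59.4% GC and those of the other 3 genes 39.6 to 48.7%. With a GC offset the log2 fold changes were -0.40 for *Pak1*, -0.29 for *Pak2*, -0.79 for *Pak3* and -0.15 for *Pak4*.

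**Figure D2:**
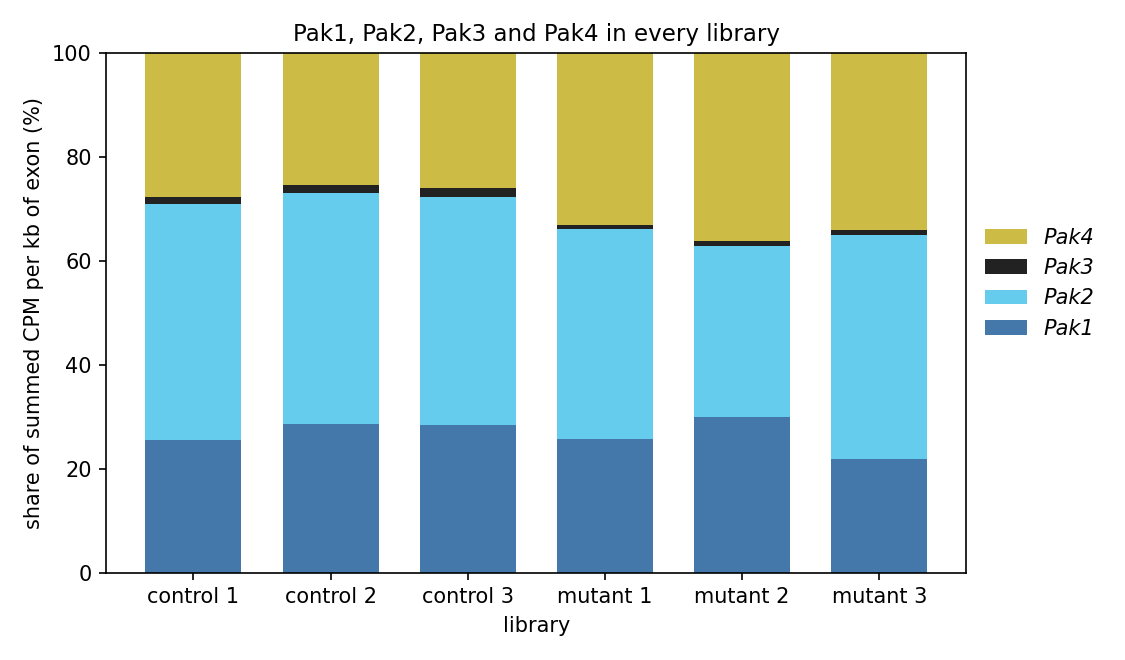
Share of *Pak1*, *Pak2*, *Pak3* and *Pak4* in their summed CPM per kilobase of exon (%), one stacked bar per library. The *Pak4* share is 25.4 to 27.7% in the 3 control libraries and 33.2 to 36.1% in the 3 mutant libraries.

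N-WASP, encoded by *Wasl*, is the effector through which Cdc42 switches on the Arp2/3 complex and branched actin. *Wasl* (ENSMUSG00000029684.14, chromosome 6, minus strand, 24613805 to 24665009) had 54.5, 63.6 and 64.9 CPM in controls against 53.8, 43.8 and 55.4 CPM in mutants. The groups overlapped, as control library 1 was below mutant library 3. The log2 fold change of -0.26 (95% interval -0.53 to 0.02, adjusted p = 0.151 in edgeR) did not pass, nor did it in any of the 19 alternatives. *Wasl* made up 93.4 ± 0.583% of the CPM per kb of *Wasl* and *Was*, its blood cell relative, in controls.

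*Baiap2* encodes IRSp53, an I-BAR protein that bends the membrane and links Cdc42 and Rac to filopodia and lamellipodia. It was the only one of the 10 genes that rose. *Baiap2* (ENSMUSG00000025372.16, chromosome 11, plus strand, 119942763 to 120006782) had 19.1, 15.1 and 16.2 CPM in controls against 29.0, 37.1 and 26.8 CPM in mutants. All mutant libraries were above all control libraries, and mutant library 2 was the highest. The mean was 16.8 ± 2.07 CPM in controls and 31.0 ± 5.39 CPM in mutants, with a log2 fold change of 0.88 (95% interval 0.54 to 1.22, edgeR adjusted p = 0.0081, Benjamini-Hochberg), or 1.84-fold. The call held in all 19 alternatives (adjusted p 6.3e-06 to 0.0489), including the GC offset, which gave 0.66. Its paralog *Baiap2l1* was at -0.01 on the same scale (adjusted p = 0.949 in edgeR), and *Baiap2* made up 46.2 to 51.2% of the CPM per kb of the pair in controls and 56.8 to 68.2% in mutants. In the order of abundance per kb, *Baiap2* was ninth in controls and above *Cdc42bpa*, at the eighth place, in mutants.

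The Borg proteins Cdc42ep1 and Cdc42ep3 bind active Cdc42 and organise septins and actin. *Cdc42ep3* (ENSMUSG00000036533.9, chromosome 17, minus strand, 79333727 to 79355091) had 44.5, 55.1 and 53.1 CPM in controls against 35.4, 36.2 and 37.1 CPM in mutants. The mutant libraries lay close together and below every control. The log2 fold change was -0.49 (95% interval -0.73 to -0.25, edgeR adjusted p = 0.0169, Benjamini-Hochberg), so the level fell by 28.9%, and with a GC offset it was -0.47 (adjusted p = 0.0236). It was called in 16 of 19 alternatives, over which the adjusted p ran from 6.9e-04 to 0.0894, and lost in edgeR without control library 2 (0.0892) or control library 3 (0.0894). *Cdc42ep3* shares 5.28% of its stretches with the overlapping antisense gene *Gm17315*, and the sum of both gave -0.47.

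*Cdc42ep1* did not pass the test. *Cdc42ep1* (ENSMUSG00000049521.2, chromosome 15, plus strand, 78842624 to 78850897) had 17.2, 23.1 and 23.4 CPM in controls against 22.1, 20.6 and 17.6 CPM in mutants, and the groups overlapped widely. Its log2 fold change was -0.08 (95% interval -0.42 to 0.26, adjusted p = 0.719 in edgeR), and a test of the difference between the 2 genes was not made. Among *Cdc42ep1* to *Cdc42ep5*, *Cdc42ep3* made up 45.9 ± 1.36% of the CPM per kb in controls and 38.1 ± 2.48% in mutants, with no overlap. The share of *Cdc42ep2* was 3.08 ± 0.272% in controls and 4.72 ± 0.132% in mutants.

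*Cdc42bpa* encodes MRCKα, a kinase that acts with Cdc42 on myosin II. *Cdc42bpa* (ENSMUSG00000026490.18, chromosome 1, plus strand, 179960472 to 180165603) had 91.4, 118 and 108 CPM in controls against 103, 75.4 and 101 CPM in mutants. The groups overlapped, with control library 1 below mutant libraries 1 and 3. The log2 fold change of -0.18 (95% interval -0.52 to 0.16) had an adjusted p of 0.400 in edgeR. An offset for GC and length turned it to 0.27 (adjusted p = 0.0925, against 0.0925 to 0.987 over all alternatives). Its exons are the longest of the 10 genes, 21522 bases, and 1.42% of its stretches are shared with *Coq8a* and *Gm38331* on the opposite strand.

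The order of the 10 transcripts per kilobase was nearly the same in both groups. In controls *Cdc42* (86.1 CPM per kb) was followed by *Cdc42ep3* (22.1), *Pak2* (19.1), *Pak1* (11.8), *Pak4* (11.3), *Wasl* (9.89), *Cdc42ep1* (8.30), *Cdc42bpa* (4.91), *Baiap2* (3.37) and *Pak3* (0.669). Across control libraries the values overlapped between *Cdc42ep3* and *Pak2*, between *Pak1* and *Pak4* and between *Wasl* and *Cdc42ep1*. Within every control library, *Cdc42ep3* was still above *Pak2* and *Wasl* above *Cdc42ep1*. *Pak1* was below *Pak4* in control library 1 and above it in the other control libraries. In mutants, *Pak4* was above *Pak1* and *Baiap2* above *Cdc42bpa*.

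**Figure D3:**
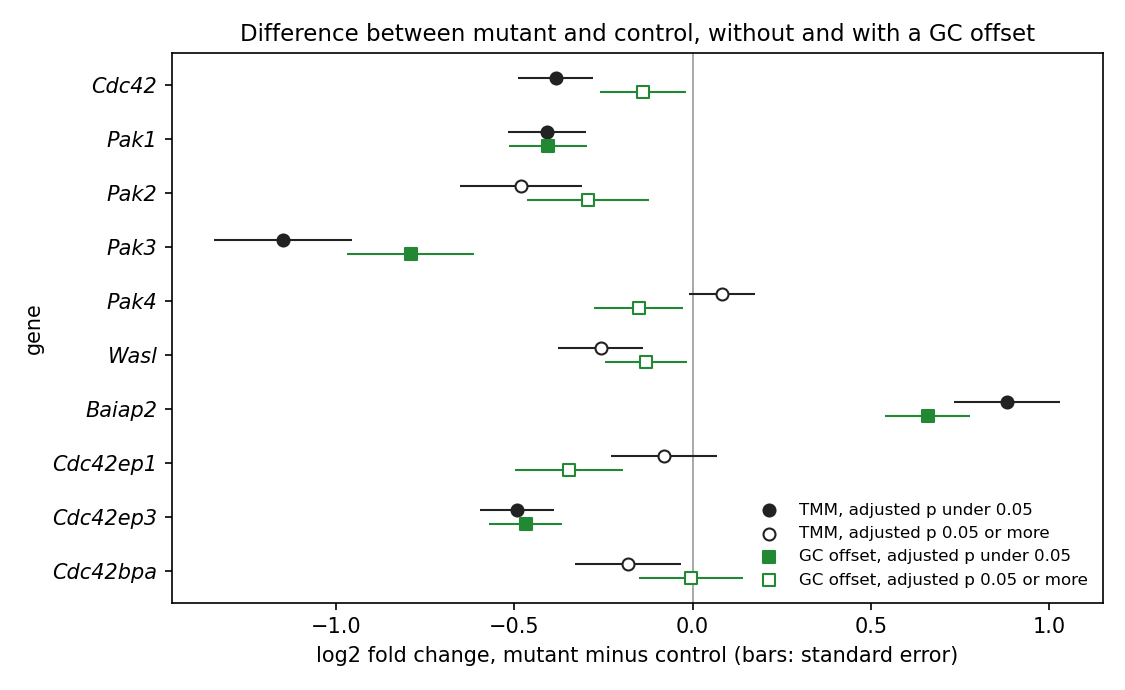
Log2 fold change of each gene, mutant minus control, with its standard error, from edgeR with TMM scaling (black circles) and with an added GC offset (green squares). Filled symbols have an adjusted p under 0.05. With the offset *Cdc42* moves from -0.38 to -0.14 and is no longer filled, and *Pak1*, *Pak3*, *Cdc42ep3* and *Baiap2* stay filled.

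Single libraries stood out across the 10 genes. Control library 1 had the lowest control value for 8 of the 10 genes, and mutant library 2 the lowest mutant value for 5 and the highest for *Baiap2*. The 8 odontoblast markers together made up 1.49, 4.69 and 3.32% of all CPM in control libraries 1, 2 and 3. In mutant libraries 1, 2 and 3 they made up 3.62, 1.34 and 1.82%. The part of odontoblast content in the values of the 10 genes was not tested. The libraries also differed by GC content. The median deviation of genes above 54.5% GC minus that of genes below 45.4% GC was -0.16, -0.29 and -0.27 on the log2 scale in control libraries 1, 2 and 3 and 0.23, 0.36 and 0.10 in mutant libraries 1, 2 and 3. Over all tested genes the median log2 fold change ran from -0.36 under 42% GC to 0.22 at 58% GC and over. *Pak1* (48.7% GC) and *Cdc42ep3* (48.2%) were below the median of -0.07 for genes of 46 to 50% GC, and *Baiap2* (57.9%) was above the median of 0.19 for genes of 54 to 58%. What sets the GC difference between the groups was not tested.

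**Figure D4:**
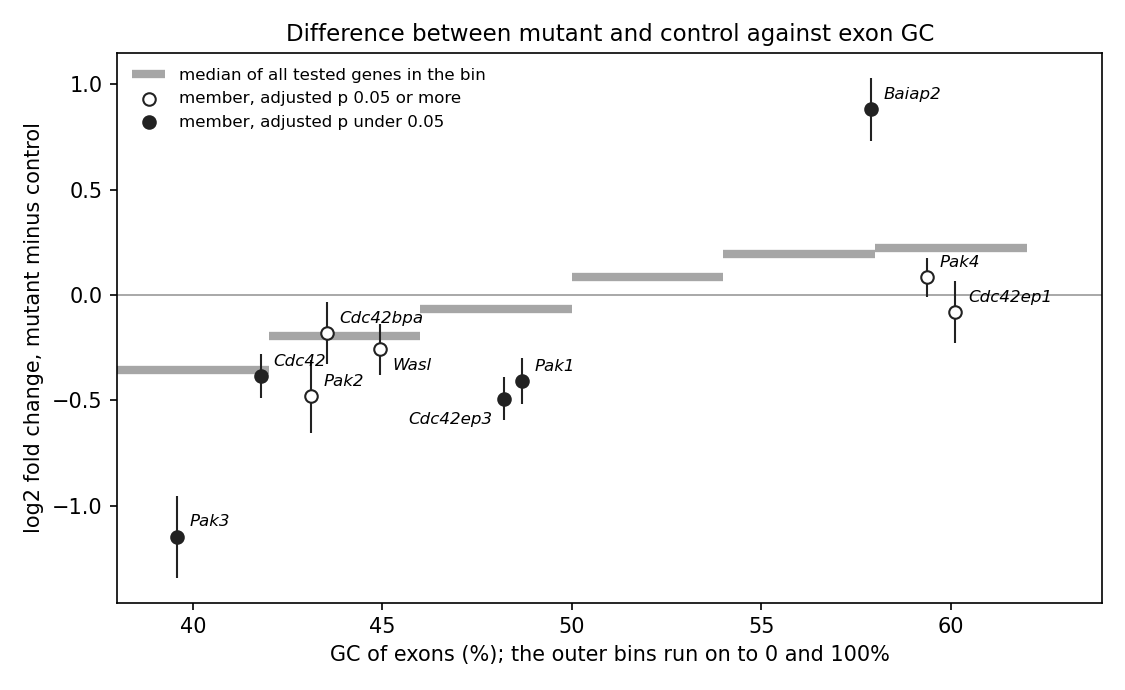
Log2 fold change of the 10 genes, mutant minus control, with standard errors, against the GC content of their exons (%). Grey bars give the median of all tested genes in each GC bin, from -0.36 to 0.22. *Cdc42*, at the upper edge of its bin, lies on that bin's median and below that of the next bin. *Pak3*, *Pak1*, *Cdc42ep3* and *Baiap2* lie apart from the medians of their bins.

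The other genes of the pathway were taken from 7 lists written by role, 116 genes in all, of which 115 were tested. In edgeR 10 of them rose and 17 fell, so 27 of 115, or 23.5%, were called, close to the 20.2% of all genes. Their median log2 fold change was -0.05. The call count depended on single libraries, as it did over all genes. It was 3 without control library 2, against 4.57% of all genes, and 3 without control library 3, against 4.39%. Without mutant library 1 it was 17, against 12.2% of all genes. With a GC offset 1 passed in the higher direction, against 6.8% of all genes, and 16 in the lower, against 6.4%. The counts of single lists are read against the same shares, 10.4% higher and 9.84% lower without the offset.

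Of the 28 other effectors tested, 2 rose and 2 fell (14.3% called), and with a GC offset none passed in the higher and 3 in the lower direction. *Tnk2*, which encodes the Cdc42-binding tyrosine kinase ACK1, had 59.9, 52.4 and 56.5 CPM in controls against 94.6, 91.2 and 72.2 CPM in mutants (log2 fold change 0.61, adjusted p = 0.0141 in edgeR). *Cdc42bpg*, a relative of *Cdc42bpa*, rose by 0.37 in log2 terms (adjusted p = 0.0239). The formin genes *Diaph3* (-0.80, adjusted p = 0.0192) and *Fmnl2* (-0.67, adjusted p = 0.0272), whose products extend unbranched actin filaments, fell. With a GC offset *Diaph3* alone of these 4 genes stayed under the threshold.

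Of 26 exchange factor genes, 6 fell and 1 rose (26.9% called), and with a GC offset 3 passed in the lower and none in the higher direction. *Fgd3*, a Cdc42 exchange factor related to *Fgd1*, had 8.60, 10.7 and 10.5 CPM in controls against 4.48, 6.50 and 4.12 CPM in mutants (log2 fold change -0.98, adjusted p = 0.0141 in edgeR), and *Dock11*, which activates Cdc42, fell by 0.79 in log2 terms (adjusted p = 0.0104). Among the others that fell, and named after their values were seen, were *Dock10* (-0.80), *Vav3* (-0.32) and *Ect2* (-0.63, adjusted p = 0.0373), the last being an exchange factor of cytokinesis. *Mcf2l*, which encodes the exchange factor Dbs, rose by 0.47 (adjusted p = 0.0189). With a GC offset *Fgd3* (-1.17) and *Dock10* (-0.66) still passed, while *Dock11* (-0.50), *Vav3* (-0.20), *Ect2* (-0.36) and *Mcf2l* (0.29) did not. Of 16 GAP genes 2 rose and 3 fell (31.2% called), and with a GC offset none passed in the higher and 4 in the lower direction. *Arhgap5*, the gene of a GAP, had 95.2, 123 and 118 CPM in controls against 66.7, 40.9 and 72.6 CPM in mutants (-0.90, adjusted p = 0.0227), but at -0.19 with a GC offset (adjusted p = 0.681, against 4.2e-04 to 0.986 over all alternatives). *Srgap1*, which acts after Slit and Robo signals, rose by 0.58 (adjusted p = 0.0447). It was called in 11 of 19 alternatives and not with the GC offset (0.56). *Arhgap22* (0.63) shares 32.1% of its stretches with another gene and is uncertain. The *Arhgap26* entry (-0.68), among the 3 GAP genes that fell, matched a gene model with only 570 exon bases. This model shares 70.4% of its stretches with other models, 47.6% with the protein-coding *Arhgap26* model, which had no entry of its own in the count table. Whether the entry reflects the GAP gene is uncertain. The GDI gene *Arhgdib*, known mainly from blood cells, had 13.8, 13.1 and 11.1 CPM in controls against 24.3, 21.8 and 25.4 CPM in mutants (0.91, adjusted p = 0.0030, called in all 19 alternatives). Beside it, 10 leukocyte markers summed to 127 to 147 CPM in control and 128 to 180 CPM in mutant libraries, with 2 higher and 1 lower, none of them called with a GC offset, and their part was not tested.

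Among 12 genes of N-WASP partners and the Arp2/3 complex, 2 fell (16.7% called), and 1 did with a GC offset. *Wipf1*, which encodes the N-WASP partner WIP, had 30.9, 39.2 and 41.2 CPM in controls against 25.4, 17.1 and 22.0 CPM in mutants (-0.79, adjusted p = 0.0171 in edgeR). *Actr2*, the gene of the Arp2 subunit, fell by 0.60 (adjusted p = 0.0127), and with a GC offset it was at -0.33 (adjusted p = 0.119, against 8.2e-05 to 0.188). Among 13 Pak partners, phosphatases and targets, 2 rose and 2 fell (30.8% called), and with a GC offset none passed in the higher and 3 in the lower direction. *Limk2*, a cofilin kinase, rose by 0.52 (adjusted p = 0.0300) and *Git1*, which brings Pak and its partner PIX to adhesions, by 0.40 (adjusted p = 0.0310), but neither passed with a GC offset (0.35 and 0.17). *Ppm1e*, a phosphatase that removes the activating phosphate from Paks, had 24.4, 39.5 and 34.1 CPM in controls against 16.5, 12.5 and 18.1 CPM in mutants (-1.06, adjusted p = 0.0120), and *Mylk*, the gene of myosin light chain kinase, fell by 0.97 (adjusted p = 0.0092). *Mylk* was called in all 19 alternatives.

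Of 17 small GTPases related to Cdc42 that were tested, 2 rose and 2 fell (23.5% called), and with a GC offset none passed in the higher and 2 in the lower direction. *Rhoq*, which encodes TC10, a close relative of Cdc42 that binds many of the same effectors, had 82.9, 100.5 and 97.6 CPM in controls against 58.9, 41.2 and 56.5 CPM in mutants. The groups did not overlap, and the log2 fold change of -0.84 (adjusted p = 0.0095 in edgeR) was called in all 19 alternatives. *Rhou*, another GTPase of the Cdc42 branch, fell by 0.54 (adjusted p = 0.0183) and stayed called with a GC offset. *Rhog* (0.44) and *Rac3* (0.58), both related to Rac1, rose, with an adjusted p of 0.0156 and 0.0375, and did not pass with a GC offset.

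**Figure D5:**
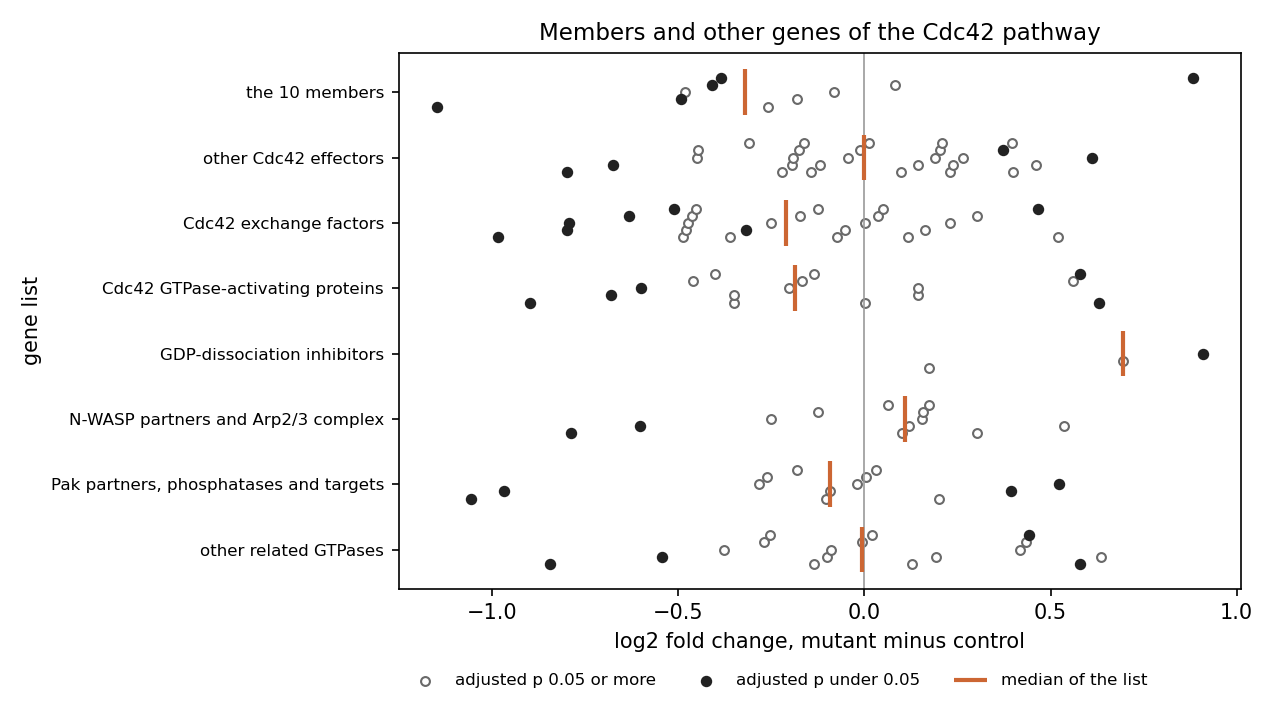
Log2 fold change, mutant minus control, of the 10 genes and of the tested genes in 7 lists of the Cdc42 pathway. Filled points have an adjusted p under 0.05 in edgeR, and the orange line is the list's median, -0.32 for the 10 genes and -0.21 to 0.69 for the other lists.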

How the data were processed

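RNA was measured in molar dental pulp in 3 libraries of *Osr2-Cre;Ror2 fl/fl* mice and 3 of controls, grouped by the genotype in the labels. The authors deposited estimated counts per gene, not normalized, from single-end reads of 75 cycles aligned to mm10 and counted over exons. The paper names TopHat as the aligner and the submitters' processing notes name STAR 2.6.1d and Partek, and the counter, strand setting and annotation are not given in the sources used here. As 47.8% of values were exactly whole, reads matching more than 1 gene may have been split between genes, and counts were rounded to whole numbers although the design had assumed whole counts. The authors also deposited a normalized signal table, in which each value is the count plus 1 times a factor per library, not divided by gene length, and it was used only as an alternative. The 6 sample columns that no label assigns were not used.

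Library sizes were scaled with TMM, genes kept by filterByExpr, and all 19330 genes fitted together in edgeR 4.0.16 (R 4.3.3) with the quasi-likelihood test without a block and Benjamini-Hochberg adjustment. Fold changes use edgeR's fit. Alternatives used DESeq2 1.42.0, limma 3.58.1, other scalings and filters, pseudocounts of 1 and 0.1 on the normalized table, offsets for GC (a spline with 5 degrees of freedom per library) and for GC and length, a block, sums with genes sharing sequence, and leaving out each library. Scripts were tested on simulated data. Libraries held 56134770 to 62628940 counts and the 10 genes 146 counts or more in each, *Pak3* having the fewest and so the largest counting error. Exon lengths, GC and coordinates are those of GENCODE M21 on mm10, which matched 27499 of 27506 genes by symbol, and promoters are from RefSeq. Genes were taken to share sequence at 20 or more common stretches of 75 bases.

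The genes and lists were chosen with earlier results of these data known. Named genes are the 10 genes, *Ror2*, and in each other list the 2 higher and 2 lower called genes with the smallest p, besides genes sharing sequence with one of the 10 and, chosen after their values were seen, relatives used for shares within a family, marker genes and other exchange factors. The marker lists of endothelium (8 genes), osteoclast (5 genes) and odontoblast (8 genes) had no gene past the threshold.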

Additional observations from a re-analysis of the deposited data

How the results depend on the processing

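*Pak3* and *Baiap2* kept their direction and call in all 19 alternatives, *Cdc42ep3* its call in 16, *Pak1* in 13 and *Cdc42* in 10. The count of the 10 genes called was 5, 6 with DESeq2, 6 with voom, and 2 to 5 when 1 library was left out. Over all genes the count was 3906 (20.2%), 5410 (28%) with DESeq2 and 6341 (32.8%) with voom. It was 2552 (13.2%) with a GC offset and 2702 (14%) with GC and length. When 1 library was left out it ran from 872 (4.39%) to 5001 (25.2%), with the lowest counts without control library 3 (872) and control library 2 (910). For the other pathway genes it was 27, and 41 with DESeq2, 49 with voom, 17 with the GC offset, 16 with GC and length, and 3 to 37 when 1 library was left out. The sign turned for *Pak4* with the GC offset (-0.15), for *Pak4* with GC and length (-0.11), for *Cdc42bpa* with GC and length (0.27), for *Arhgap5* with GC and length (0.0076, adjusted p = 0.986 in edgeR) and for *Cdc42ep1* without mutant library 3 (range -0.22 to 7.8e-05 over libraries left out). The cause was not tested.

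Both groups carry the sample indices 5, 6 and 7 in the labels. Deviations from the group mean correlated at r = -0.10, -0.08 and -0.0038 between libraries of the same index. Between libraries of different index r ran from -0.04 to 0.10. With 3 libraries per group, these values cannot show whether libraries of the same index share a batch. With the index as a replicate block, 2013 genes (10.4% of all), 3 of the 10 genes and 14 of the other pathway genes were called. With the block and the GC offset these counts were 1280 (6.62% of all), 2 and 8. *Pak4* was at -0.16 in the latter. Among the values of single genes under an alternative, 471 kept direction and side of the threshold, 124 lost the call, 3 gained it and 6 turned.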
